A study of Rattus norvegicus with 21 samples.

Results

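Slc17a7, Sgk1, Cd24, Mal2, Hpca, Ctxn1, Bhlhe22, Neurod6 and Camk2a are 9 of the 16245 gene symbols measured in 21 patched and sequenced hippocampal neurons of the rat. They were chosen by their measured values, namely a higher level in pyramidal than in GABAergic neurons in earlier results from the same table, together with genes known from pyramidal neurons. The levels that separate these cell types are therefore given below as a description, with no test. All 9 symbols had 1 row each in the deposited table, which places them on build rn6 at chr1:101161252-101173169 (Slc17a7), chr1:24185454-24193567 (Sgk1), chr20:48335540-48340846 (Cd24), chr7:94130852-94163647 (Mal2), chr5:147295121-147303501 (Hpca), chr12:2534212-2535822 (Ctxn1), chr2:102685513-102688624 (Bhlhe22), chr4:85911837-85915107 (Neurod6) and chr18:56193978-56295869 (Camk2a). The label of a pyramidal-enriched set held for 8 of the 9 genes, whose mean was higher in pyramidal neurons than in each GABAergic group, but not for Camk2a, whose mean was below that of glia-cultured GABAergic neurons.

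All neurons were taken on embryonic day 18 from Wistar rats whose VGAT-Venus transgene marks cells with the vesicular GABA transporter, and had spent 17 days in vitro. The 5 pyramidal neurons came from cultures with glia. The 5 OCM-treated GABAergic neurons came from purified cultures to which oligodendrocyte-conditioned medium (OCM), collected from oligodendrocytes of rat cortex, was added from day 3 in vitro. The 5 purified GABAergic neurons came from cultures without that medium. Both kinds of purified culture had received FdU and U, antimitotic agents, at 5 µM, which were added 24 h after dissection and removed after 36 h. The 6 glia-cultured GABAergic neurons came from cultures that kept their glial cells, as the pyramidal neurons did. No animal or culture is named for a cell, so each group counts as 1 sample, and SDs describe the spread between cells only.

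Glutamatergic neurons load glutamate into synaptic vesicles with a vesicular glutamate transporter, and in hippocampal pyramidal neurons the main one is VGLUT1, the product of Slc17a7. The identity of these neurons is set during development by transcription factors of the basic helix-loop-helix (bHLH) family, among them Neurod6 and Bhlhe22. Mature pyramidal neurons are also known for calcium signalling proteins such as hippocalcin, from Hpca, and the alpha subunit of calcium/calmodulin-dependent kinase II, from Camk2a. GABAergic neurons make GABA with Gad1 and Gad2 instead. Sgk1 encodes a kinase under glucocorticoid control, and Cd24, Mal2 and Ctxn1 encode membrane proteins, of which cortexin, from Ctxn1, is known from neurons of the forebrain.

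The bHLH factors bind DNA at the E-box, CANNTG. The 250 bases before the start of 7 of the 9 genes were found in the promoter table of RefSeq, assembly GRCr8, which differs from the build of the counts, rn6. Those 3 promoters are printed below that show the range in the number of E-boxes. Each runs 5′ to 3′ on the strand of its gene, and capitals mark matches to CANNTG and, in Neurod6, to the cAMP response element TGACGTCA. They lie at chr1:104785955-104786204 (plus strand) for Slc17a7, chr4:86180156-86180405 (minus strand) for Neurod6 and chr12:7409920-7410169 (minus strand) for Ctxn1.
Slc17a7: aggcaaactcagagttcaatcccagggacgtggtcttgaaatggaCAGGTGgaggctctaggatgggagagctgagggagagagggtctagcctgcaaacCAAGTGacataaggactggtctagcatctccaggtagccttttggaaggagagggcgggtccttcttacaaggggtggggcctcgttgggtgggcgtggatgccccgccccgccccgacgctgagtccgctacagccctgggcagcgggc
Neurod6: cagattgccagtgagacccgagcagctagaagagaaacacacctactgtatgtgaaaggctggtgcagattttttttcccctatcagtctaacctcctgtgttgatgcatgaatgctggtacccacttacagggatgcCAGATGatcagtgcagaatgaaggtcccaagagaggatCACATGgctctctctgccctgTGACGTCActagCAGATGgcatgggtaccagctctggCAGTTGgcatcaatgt
Ctxn1: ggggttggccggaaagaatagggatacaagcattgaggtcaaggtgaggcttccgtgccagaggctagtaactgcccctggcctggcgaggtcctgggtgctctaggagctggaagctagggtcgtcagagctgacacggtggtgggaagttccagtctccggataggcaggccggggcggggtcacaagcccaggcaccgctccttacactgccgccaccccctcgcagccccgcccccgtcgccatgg
The Neurod6 window held 4 E-boxes, starting 112, 74, 41 and 16 bases before the gene's start, and the Slc17a7 window held 2, starting 205 and 150 bases before it. No CANNTG was present in the windows of Ctxn1 and Hpca. Camk2a had 2 matches, Cd24 had 1, and Sgk1 had 1 in each of 2 of its 3 promoters. This motif reads the same on both strands and was found in 65.5% of all 33469 promoters of this length, so its presence in 5 of 7 genes is a common feature. The form CAGATG, searched on both strands and contained in CANNTG, stood 2 times in the Neurod6 window and in no other window of these genes, against 14.0% of all promoters. TGACGTCA stood only in the Neurod6 window among these genes, from 53 to 46 bases before the start, and in 1.59% of all promoters. A match of letters shows neither binding nor regulation, and no match says only that the letters are not in this window.

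Read depth ran from 1817671 to 25160911 reads per cell. Gad1 checked the labels in part: it was at 0 in all 5 pyramidal neurons and ranged from 2422 to 15540 normalized counts in OCM-treated, from 0 to 2930 in purified and from 6011 to 19503 in glia-cultured GABAergic neurons. The 0 belongs to purified cell 4, which had 14087 normalized counts of Gad2. Pyramidal cells 1 and 2 also had Gad2, at 924 and 714, and the other 3 had none. Pyramidal cell 3 stood apart from the others: Mbp, a myelin protein gene, reached 278859 normalized counts there, Apoe 59681 and the microglial gene Aif1 12526, whereas Snap25, a presynaptic gene, was at 3590, the lowest of all 21 cells. Its summed level of 11 oligodendrocyte markers was 324915, with 6 of them above 0, that of 8 measured astrocyte markers 64524, with 6 above 0, that of 7 microglial markers 23414, with 4 above 0, and that of 10 pan-neuronal markers 14672, with 4 above 0. Rbfox3, Tubb3 and Syt1, general neuronal genes, were at 0 in it, as were the glial genes Sox10, Mog, Aqp4, Cx3cr1, Csf1r and P2ry12. Pyramidal cell 4 held an oligodendrocyte marker sum of 103570, with 7 of 11 above 0, a microglial sum of 123, all of it C1qa, and a pan-neuronal sum of 63233.

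**Figure D1:**
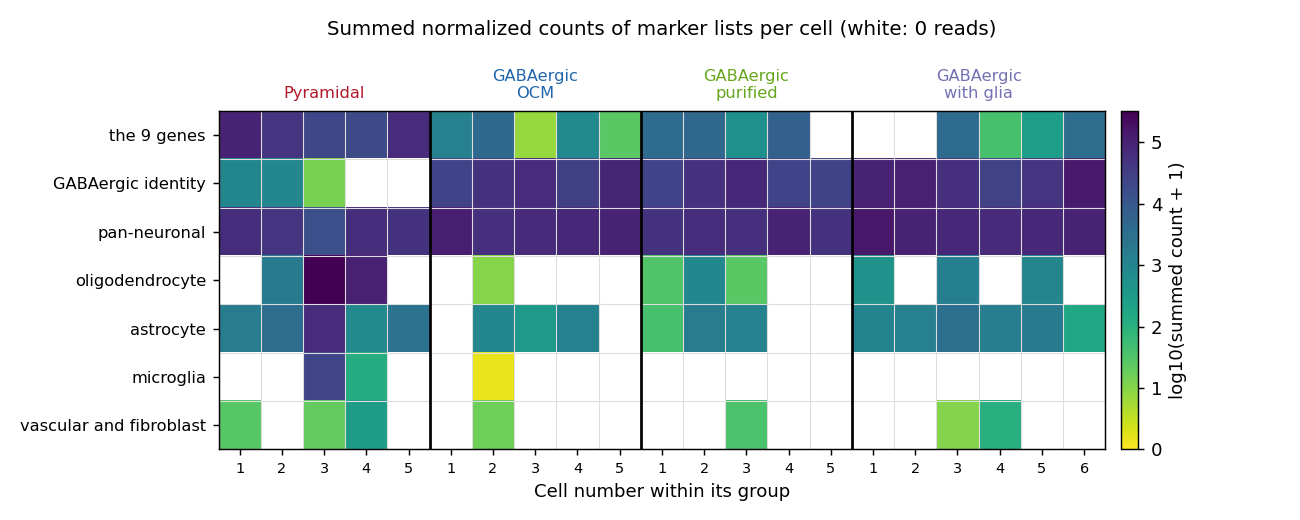
Summed normalized counts of the 9 genes and of 6 marker lists (rows) in each of the 21 cells (columns, by group), as log10 of the sum plus 1, with white for 0 reads. Pyramidal cells 3 and 4 carry oligodendrocyte sums of 324915 and 103570, whereas the sums in GABAergic cells reach at most 1352.

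In the other pyramidal neurons the oligodendrocyte sum was 0 in cells 1 and 5 and 1840 in cell 2, nearly all of it Olig2 at 1604. It ranged from 0 to 9.16 in OCM-treated, 0 to 857 in purified and 0 to 1352 in glia-cultured GABAergic neurons. The astrocyte sum ranged from 789 to 64524 in pyramidal, 0 to 1226 in OCM-treated, 0 to 1538 in purified and 169 to 3114 in glia-cultured GABAergic neurons. Microglial markers were at 0 in all purified and glia-cultured cells and summed to at most 0.509 in OCM-treated ones. Vascular and fibroblast markers summed to at most 288 in pyramidal, 15.3 in OCM-treated, 35.6 in purified and 109 in glia-cultured GABAergic neurons. The part of glial RNA in the levels of the 9 genes in pyramidal cells 3 and 4 was not tested. Without pyramidal cell 3 the pyramidal mean of Cd24 changed by more than 1.5 times, and those of the other 8 genes did not.

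**Figure D2:**
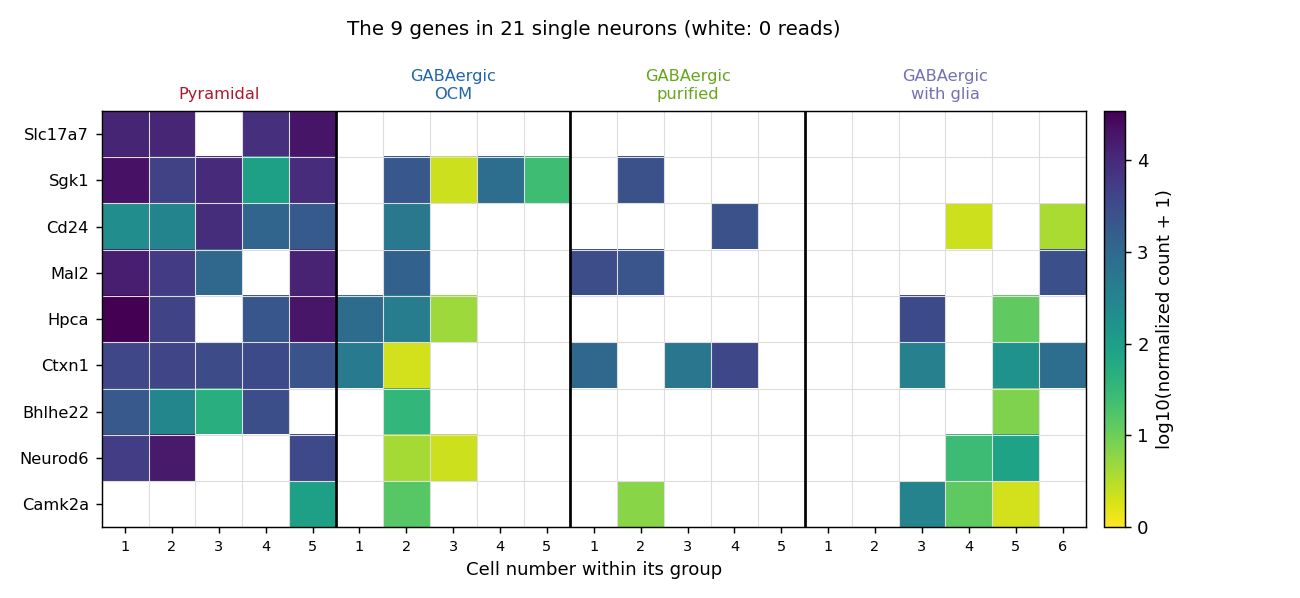
Normalized counts of the 9 genes (rows) in each of the 21 cells (columns, by group), as log10 of the count plus 1, with white for 0 reads. Pyramidal columns hold 5 to 8 genes each, and among GABAergic columns OCM-treated cell 2 is the fullest, with 8.

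Slc17a7 was detected in pyramidal neurons and in no GABAergic neuron. It had 11740, 10875, 0, 7887 and 18423 normalized counts in pyramidal cells 1 to 5, and 0 in all 5 OCM-treated, all 5 purified and all 6 glia-cultured GABAergic neurons. The 4 positive cells rest on 7940, 1844, 25295 and 23767 reads, and the empty one is pyramidal cell 3. The groups overlap through cell 3 alone. In single GABAergic neurons, 3 reads would amount to between 1.53 and 4.65 normalized counts in OCM-treated, 2.80 and 8.22 in purified and 0.909 and 4.25 in glia-cultured cells. Lower levels could have been missed. The pyramidal mean was 9785 ± 6689 (SD, n = 5 cells). For groups at 0 the floor was 3 reads over the whole group, at the group's mean value of 1 read. The pyramidal mean was 20864 times this floor in OCM-treated, 10210 times in purified and 29437 times in glia-cultured neurons. These are no strict lower limits, since 3 reads in a shallow cell would give a higher group mean. Among 1132 genes above 0 in at least 4 of the 5 pyramidal cells, 0.177% were at 0 in all 16 GABAergic cells. These were 2 genes, Slc17a7 and Nfkbia. Nfkbia, an inhibitor of NF-κB, had a pyramidal mean of 895 and a highest cell of 3290.

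The other vesicular glutamate transporters were rare. Slc17a6, which encodes VGLUT2, had 5150 normalized counts in the first pyramidal neuron and 37.4 in the fourth, and its only GABAergic value was 1.22 in OCM-treated cell 3. Slc17a8, which encodes VGLUT3, was at 0 in all pyramidal neurons, at 8.22 in purified cell 3 and at 274 and 650 in glia-cultured cells 1 and 6. Thus Slc17a7 was the one vesicular glutamate transporter present in pyramidal cells 2 and 5, and pyramidal cell 3 had none of the 3.

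Neurod6, a bHLH factor of postmitotic glutamatergic neurons, was high in 3 pyramidal neurons and near 0 elsewhere. It had 5027, 16189, 0, 0 and 3349 normalized counts in pyramidal cells 1 to 5. In GABAergic neurons it had 3.05 and 1.22 in OCM-treated cells 2 and 3, which are 6 and 2 reads, 25.2 and 80.0 in glia-cultured cells 4 and 5, which are 41 and 150 reads, and 0 in the other 12 cells. Each of the 3 positive pyramidal neurons exceeded every GABAergic neuron. The 2 empty ones, cells 3 and 4, are those with the highest oligodendrocyte marker sums, 324915 and 103570. Pyramidal cell 2, where Neurod6 was highest, had a far lower sum of 1840, nearly all of it Olig2. A link between these markers and Neurod6 was not tested. In pyramidal neurons the mean was 4913 ± 6669 (SD, n = 5 cells). This was 5747 times the OCM-treated mean, 280 times the glia-cultured mean and 5127 times the 3-read floor of purified neurons. Without pyramidal cell 2 it was 2094, or 2450 times the OCM-treated and 119 times the glia-cultured mean.

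Bhlhe22, a bHLH repressor of projection neurons, was present in 4 pyramidal neurons. It had 1804, 283, 46.9, 2798 and 0 normalized counts in pyramidal cells 1 to 5, and outside them only 32.6 in OCM-treated cell 2 and 6.40 in glia-cultured cell 5. The 4 positive pyramidal cells lay above both of these GABAergic cells, and pyramidal cell 5, in which Slc17a7 was highest, had no read. The pyramidal neurons' mean of 986 ± 1255 (SD, n = 5 cells) was 151 times the OCM-treated mean, at least 1029-fold higher than in purified and 925 times the glia-cultured mean. Without pyramidal cell 4 it was 533, or 81.9 times the OCM-treated and 500.1 times the glia-cultured mean.

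The 2 bHLH genes did not mark the same pyramidal neurons. Cells 1 and 2 held both, cells 3 and 4 held Bhlhe22 without Neurod6, and cell 5 held Neurod6 without Bhlhe22. Their closest relatives varied as much: Neurod1 was at 5866 in pyramidal cell 1 and at 2.93 and 5.61 in cells 3 and 4, and Neurod2 was at 452, 1770 and 135 in pyramidal cells 1, 3 and 4. In GABAergic neurons Neurod1 was at most 9.16 and Neurod2 at most 1.23. Pyramidal cell 3, with no Slc17a7 and no Neurod6, therefore still carried the highest Neurod2 value of the 21 cells. Of the 10 bHLH relatives listed, 9 were in the table and 5 were measured, that is above 0 in at least 3 of the pyramidal and glia-cultured cells. Tcf4, the broadly expressed E-protein partner of these factors, was at 4254, 3138, 0, 488 and 0 in pyramidal cells 1 to 5 and between 1199 and 4003 in every glia-cultured GABAergic neuron.

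**Figure D3:**
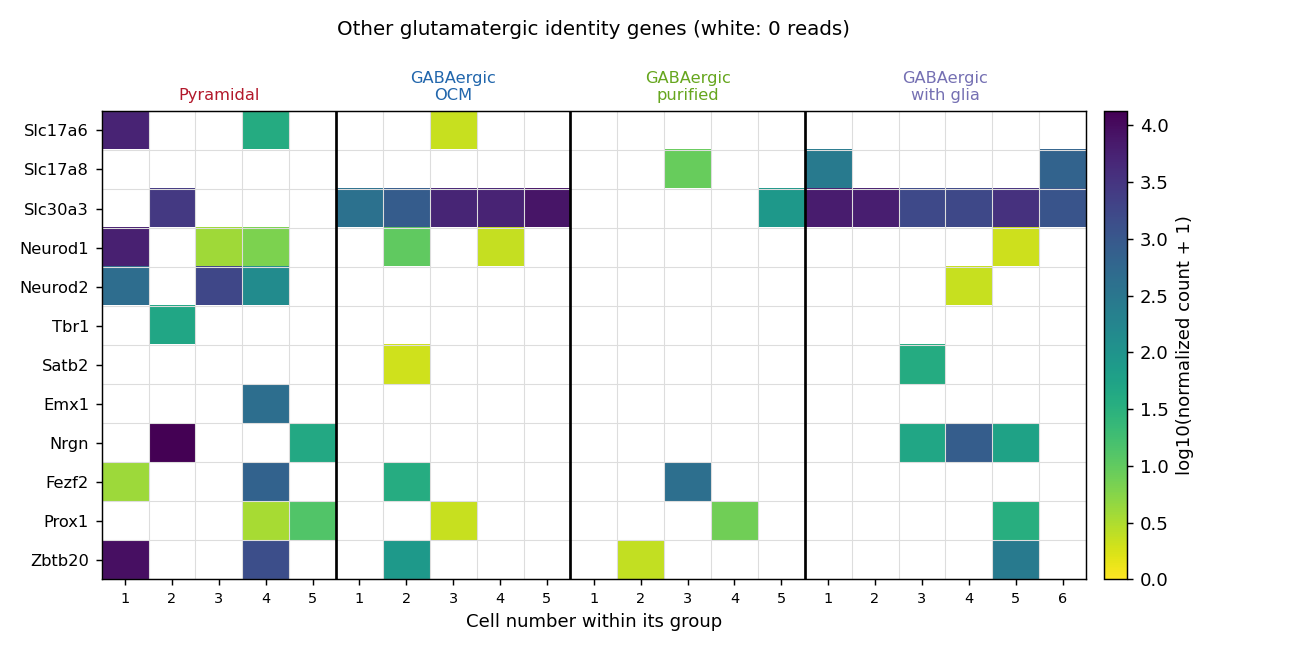
Normalized counts of 12 other genes of glutamatergic identity (rows) in each of the 21 cells (columns, by group), as log10 of the count plus 1, with white for 0 reads. Neurod2 reaches 1770 in pyramidal cell 3 and at most 1.23 in GABAergic cells, whereas Slc30a3 is filled in all OCM-treated and glia-cultured GABAergic columns and in 1 pyramidal column.

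A list of 14 other genes of glutamatergic identity, of which 12 were in the table and 6 measured, contained 3 genes higher in pyramidal than in glia-cultured GABAergic neurons by at least 3 in the mean of log2 of the count plus 1, which is 8-fold, and 1 lower by that much. Over all 6571 measured genes 4.02% were higher and 37.8% lower by that much. Neurod2 differed by 5.15, Zbtb20 by 3.37 and Neurod1 by 3.27. Zbtb20, a zinc finger factor of hippocampal pyramidal neurons, owed this to 8987 in pyramidal cell 1 and 1377 in cell 4, against at most 266 in a GABAergic neuron. The gene lower by that much was Slc30a3, the vesicular zinc transporter of glutamatergic terminals, which was at 2707 in pyramidal cell 2 and 0 in the other pyramidal cells, against 1140 to 6563 in all 6 glia-cultured GABAergic neurons, a difference of -9.14. It was also present in all 5 OCM-treated neurons, at 391 to 7809, and in 1 of 5 purified neurons, at 83.0. Nrgn, a postsynaptic calmodulin-binding protein, was at 13341 in pyramidal cell 2 and 41.9 in cell 5, and between 47.3 and 810 in 3 glia-cultured neurons.

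Hpca, which encodes the calcium sensor hippocalcin of hippocampal pyramidal neurons, was present in 4 pyramidal neurons and in 5 GABAergic ones. It had 33872, 4058, 0, 2088 and 18118 normalized counts in pyramidal cells 1 to 5. GABAergic neurons had 833, 404 and 3.67 in OCM-treated cells 1 to 3, 0 in all purified cells, and 3203 and 11.7 in glia-cultured cells 3 and 5. The value of 3.67 is 6 reads, whereas glia-cultured cell 3 lay above pyramidal cell 4, so the groups overlap by more than the empty pyramidal cell 3. The pyramidal mean was 11627 ± 14322 (SD, n = 5 cells). This was 46.8 times the OCM-treated mean, 21.7 times the glia-cultured mean and 12132 times the 3-read floor of purified neurons. Without pyramidal cell 1 it was 6066, or 24.4 times the OCM-treated and 11.3 times the glia-cultured mean. The row of Hpca overlaps that of Tmem54 on the genome, which was at most 16.3 in any cell, and no source used here gives the strand setting of the counts.

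Other neuronal calcium sensors were not set apart by the log2 difference, which was 7.89 for Hpca. Of 6 listed, 5 were measured, and 0 differed by at least 3 in either direction between pyramidal and glia-cultured GABAergic neurons. Over all 6571 measured genes 4.02% were higher and 37.8% lower by that much. The median difference was -0.45 for the sensors and -2.05 over all measured genes. Vsnl1, which encodes visinin-like protein, was at 23951, 23951, 0, 5111 and 36430 in pyramidal cells 1 to 5 and between 3563 and 14802 in glia-cultured neurons. Hpcal4, the relative that was most uneven, was at 3274 and 7862 in pyramidal cells 4 and 5 and 0 in cells 1 to 3, and reached 647 in glia-cultured cell 4. Ncald, or neurocalcin, was present in all 5 pyramidal neurons, at 70.8 to 18044, and in all glia-cultured neurons, at 626 to 14021. By group means Hpcal4 did stand apart, with 2227 in pyramidal and 146 in glia-cultured neurons. The same means were 371 and 130 for Hpcal1, 17888.5 and 11195 for Vsnl1, 5969 and 4577 for Ncald, and 200 and 361 for Ncs1.

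Camk2a went against the name of the set in the comparison with glia-cultured neurons. It had 88.4 normalized counts, or 114 reads, in pyramidal cell 5 and 0 in the other 4 pyramidal neurons. GABAergic neurons had 14.2 in OCM-treated cell 2, 5.42 in purified cell 2, which is 4 reads, and 320, 12.3 and 1.07 in glia-cultured cells 3 to 5. The highest cell of all was thus GABAergic, glia-cultured cell 3 with 514 reads. Means were 17.7 ± 39.5 (SD, n = 5 cells) in pyramidal and 55.5 ± 129 (SD, n = 6 cells) in glia-cultured GABAergic neurons, a ratio of 0.318, and the difference on the log2 scale was -0.89, from -2.18 to 0.34 when any 1 cell was left out. The pyramidal mean was 6.20 times the OCM-treated and 16.3 times the purified mean, and in all 3 ratios it rests on pyramidal cell 5 alone, without which it is 0. Its partner subunit gene Camk2b had 2.96, 8516, 0, 5375 and 15382 in pyramidal cells 1 to 5, against 3010 to 6630 in glia-cultured neurons. Of 11 measured genes of the CaMKII family and its postsynaptic partners, 7 were lower by at least 3 in pyramidal than in glia-cultured neurons, as were 37.8% of all 6571 measured genes, and 0 were higher. Their median was -4.25 beside -2.05 over all measured genes. The glutamate receptor subunit genes Grin1 and Gria2 were among the 7, with differences of -5.52 and -4.25.

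**Figure D4:**
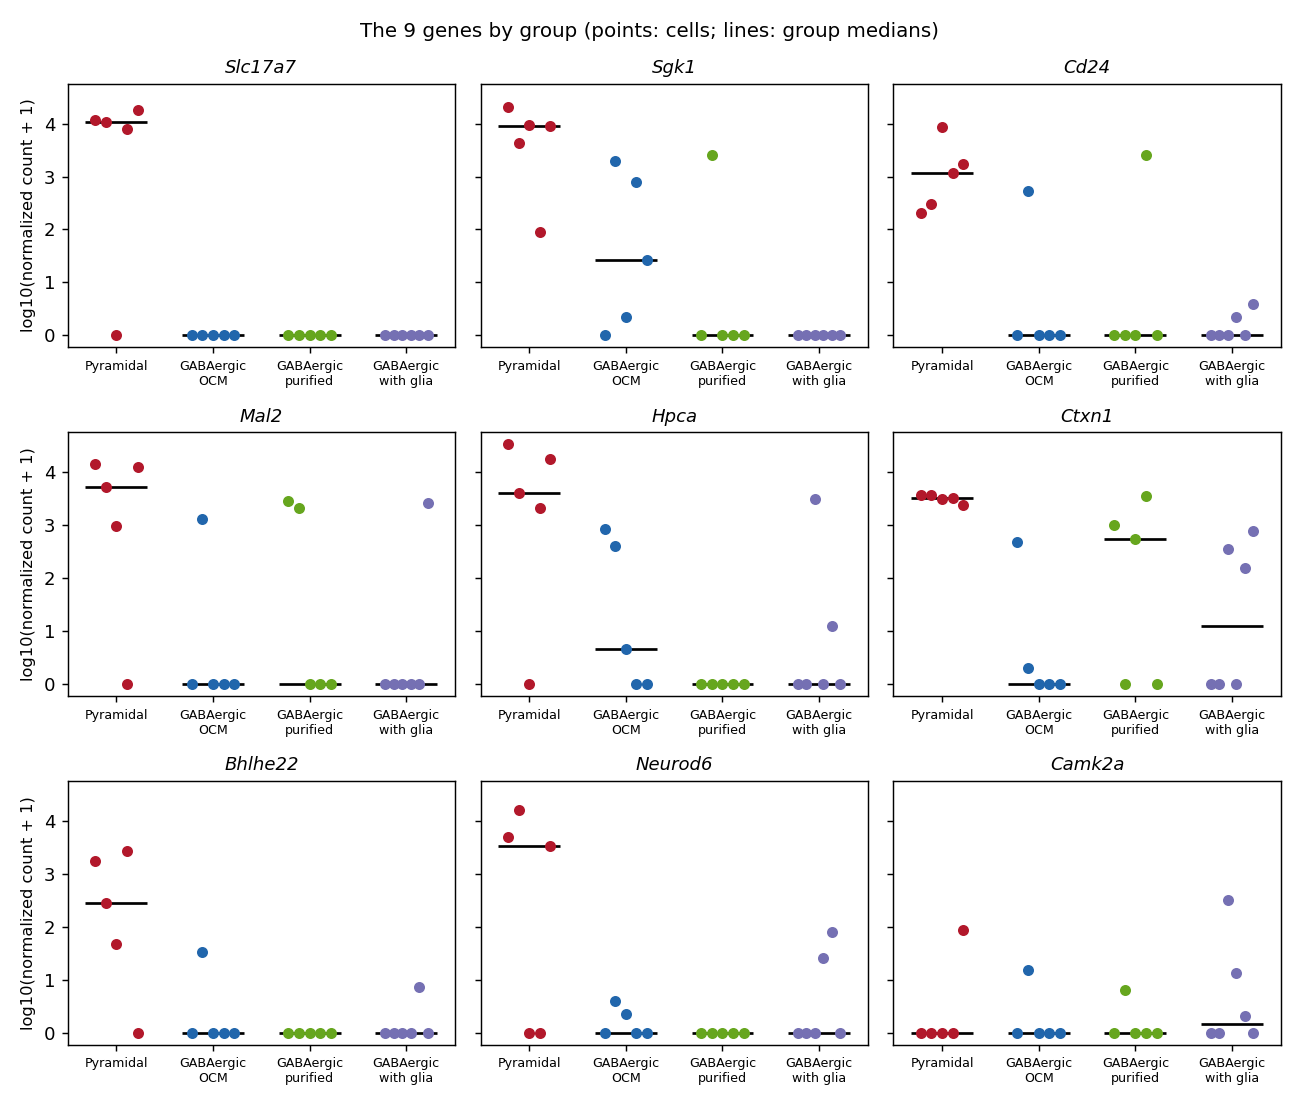
Log10 of the normalized count plus 1 (vertical axis) of each of the 9 genes, with a point for each cell and a line at the median of each group (horizontal axis). Ctxn1 forms the tightest pyramidal group, from 2387 to 3786, and Camk2a is the panel in which the highest point, 320, belongs to a glia-cultured GABAergic neuron.

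Sgk1, the serum- and glucocorticoid-regulated kinase, was present in every pyramidal neuron and in none of the glia-cultured GABAergic neurons. It had 20760, 4376, 9458, 89.8 and 8937 normalized counts in pyramidal cells 1 to 5. OCM-treated cells 1 to 5 had 0, 1994, 1.22, 796 and 24.8, of which the 1.22 is 2 reads. Purified cell 2 had 2523 and the other 4 purified cells had 0, and all 6 glia-cultured cells had 0. Pyramidal and glia-cultured neurons did not overlap, whereas OCM-treated cells 2 and 4 and purified cell 2 lay above pyramidal cell 4, which is one of the cells with oligodendrocyte markers. The pyramidal mean of 8724 ± 7728 (SD, n = 5 cells) was 15.5 times the OCM-treated mean, 17.3 times the purified mean and at least 26245-fold higher than in glia-cultured neurons. Without pyramidal cell 1 it was 5715, or 10.1 times the OCM-treated and 11.3 times the purified mean.

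In the list of 9 genes of the SGK family and pathway, 7 were in the table and 5 measured, of which 1 was higher by at least 3 in pyramidal than in glia-cultured GABAergic neurons and 3 were lower, with a median of -3.24. Over all measured genes 37.8% were lower by at least 3 and the median was -2.05, so this count says little of the pathway. The higher gene was Nedd4l, a ubiquitin ligase that SGK1 phosphorylates, at 1085, 255 and 1334 in pyramidal cells 2, 4 and 5 and 0 in cells 1 and 3, against at most 97.7 in a glia-cultured neuron. Pdpk1, which activates SGK1, was at 4237 in pyramidal cell 5 and 0 in the other 4, against 760.6 to 2262 in 4 of 6 glia-cultured neurons. Of 10 listed genes of the glucocorticoid receptors and their response, 8 were measured, 0 were higher by at least 3 and 2 lower, against 4.02% and 37.8% of all measured genes. Klf9, a glucocorticoid-induced factor, was at 0, 6057, 1860, 1341 and 178 in pyramidal cells 1 to 5 and between 0 and 894 in glia-cultured neurons. Tsc22d3, which encodes the glucocorticoid-induced leucine zipper, was above 0 in pyramidal cells 3 and 4 only among pyramidal neurons, at 645 and 1004, and in all 6 glia-cultured neurons, at 1365 to 5311.

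Cd24, a small glycosylated surface protein of young neurons and immune cells, was present in every pyramidal neuron. It had 201, 307, 8566, 1147 and 1758 normalized counts in pyramidal cells 1 to 5. GABAergic neurons had 524 in OCM-treated cell 2, 2595 in purified cell 4, 1.23 and 2.83 in glia-cultured cells 4 and 6, which are 2 reads each, and 0 in the other 12 cells. All pyramidal neurons lay above all glia-cultured ones, while purified cell 4, the neuron with no Gad1 read, lay above 4 of the 5 pyramidal neurons. The highest value came from pyramidal cell 3, the neuron with glial and microglial markers. In pyramidal neurons the mean of 2396 ± 3508 (SD, n = 5 cells) was 22.8 times the OCM-treated mean, 4.62 times the purified mean and 3538 times the glia-cultured mean, the last resting on 4 reads. Without pyramidal cell 3 the mean was 853 ± 737 (SD, n = 4 cells), which is 8.13 times the OCM-treated, 1.64 times the purified and 1260 times the glia-cultured mean. The OCM-treated and purified means each rest on 1 cell.

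Mal2, a membrane-raft protein of apical transport in epithelial cells, was present in 4 pyramidal neurons. It had 14193, 5320, 985, 0 and 12714 normalized counts in pyramidal cells 1 to 5. GABAergic values were 1343 in OCM-treated cell 2, 2869 and 2159 in purified cells 1 and 2 and 2639 in glia-cultured cell 6, with 0 in the other 12 cells. Thus in GABAergic neurons Mal2 was either absent or at 1343 normalized counts or more, and all 4 of these cells lay between pyramidal cells 3 and 2. The pyramidal mean of 6643 ± 6553 (SD, n = 5 cells) was 24.7 times the OCM-treated mean, 6.61 times the purified mean and 15.1 times the glia-cultured mean. Its relative Mal, a myelin protein gene, was at 0 in all 21 cells, pyramidal cells 3 and 4 included.

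Ctxn1, which encodes the small neuronal membrane protein cortexin, was the most even of the 9 genes in pyramidal neurons and the one found in most GABAergic neurons at 100 or more. It had 3716, 3786, 3171, 3276 and 2387 normalized counts in pyramidal cells 1 to 5. GABAergic neurons had 473 and 1.02 in OCM-treated cells 1 and 2, 1036, 562 and 3562 in purified cells 1, 3 and 4, and 363, 158 and 771 in glia-cultured cells 3, 5 and 6. All pyramidal neurons lay above all OCM-treated and glia-cultured ones, but purified cell 4 lay above 3 pyramidal neurons. In pyramidal neurons the mean of 3267 ± 560 (SD, n = 5 cells) was 34.5 times the OCM-treated mean, 3.17 times the purified mean and 15.2 times the glia-cultured mean. Of its relatives, Ctxn3 was at 0 in all cells and Ctxn2 was found in GABAergic neurons only, at 650 and 55 in purified cells 3 and 4 and 227 in glia-cultured cell 1.

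Set against glia-cultured GABAergic neurons, from the same kind of culture, 8 of the 9 genes were higher in pyramidal neurons by at least 3 on the log2 scale, and 0 were lower by that much. Over all 6571 measured genes, 4.02% were higher and 37.8% lower by at least 3, and the median was -2.05 beside 7.89 for the 9 genes. Since these values chose the genes, the counts describe the choice. The differences were 11.86 for Sgk1, 10.81 for Slc17a7, 9.47 for Cd24, 8.06 for Mal2, 7.89 for Hpca, 7.42 for Ctxn1, 6.72 for Bhlhe22 and 5.76 for Neurod6. When any 1 cell was left out each of these 8 stayed at 4.16 or more, the lowest being Neurod6. In Sgk1, Cd24 and Ctxn1 every pyramidal neuron lay above every glia-cultured one, which 0.243% of measured genes did. Without pyramidal cell 3, Slc17a7 joined them, and 0.733% of measured genes did so. Without pyramidal cell 5, Bhlhe22 joined them, and 0.480% of measured genes did so. Without pyramidal cells 3 and 4 together, 8 genes differed by at least 3, Neurod6 by 10.82 and Slc17a7 by 13.70. The share of all genes was not computed for that set of cells.

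**Figure D5:**
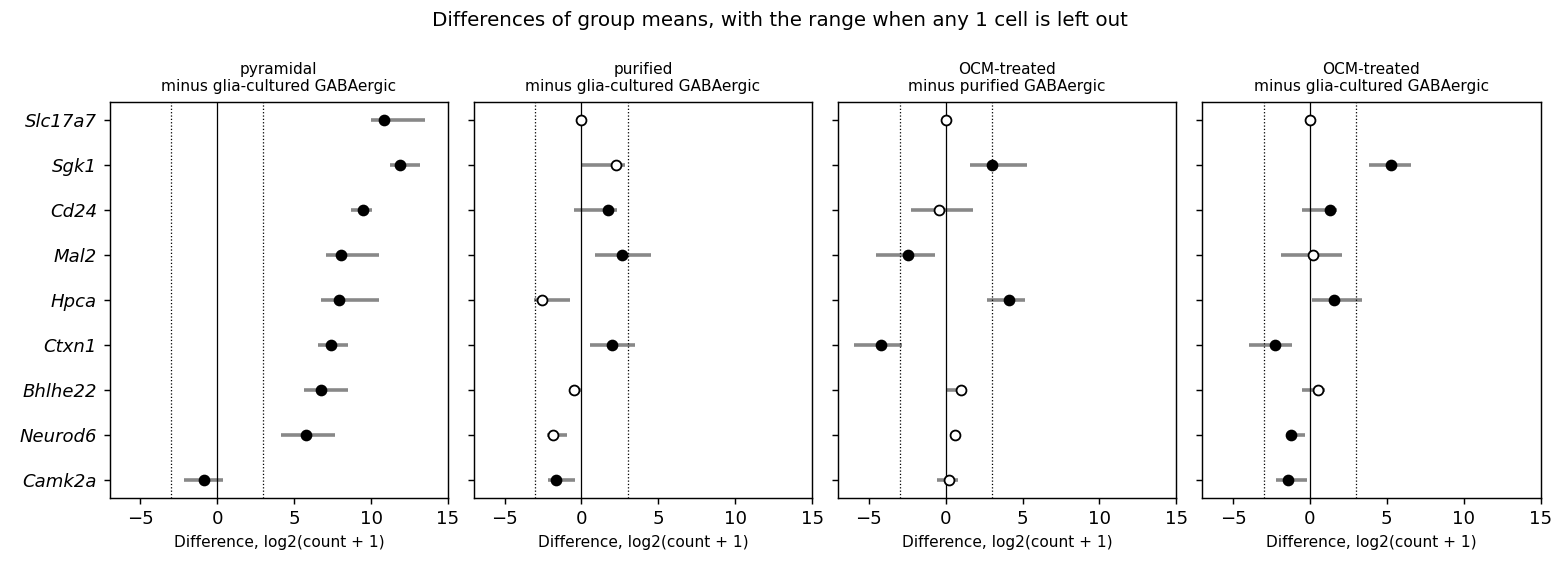
Difference of group means of log2 of the normalized count plus 1 (horizontal axis) for each of the 9 genes in each comparison, with bars for the range when any 1 cell is left out, filled points for measured genes, open points for genes above 0 in fewer than 3 cells, and dotted lines at 3 in either direction. In pyramidal minus glia-cultured GABAergic neurons 8 genes lie between 5.76 and 11.86, and Camk2a lies at -0.89.

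Sample titles open with letters that the labels do not explain. Pyramidal cells 1 and 2 are titled S and cells 3 to 5 P, and glia-cultured GABAergic cells 1 and 2 are titled ech, cells 3 to 5 P and cell 6 S. Among cells titled P, 5 of 7 measured genes were higher by at least 3 in pyramidal neurons, and Neurod6 differed by 0.22. The share of all genes was not computed for these cells. Slc17a7, at 7887 and 18423 in pyramidal cells 4 and 5, was at 0 in glia-cultured cells 3 to 5. So was Mal2, at 985 and 12714 in pyramidal cells 3 and 5. Both genes therefore fell below the minimum of 3 cells and were not counted. For cells titled S, which held 1 glia-cultured neuron only, this count was not made. Both glia-cultured cells titled ech had reads of none of the 9 genes, whereas cells 3 to 6 had 3, 3, 5 and 3 of them, and after thinning every cell to 1817671 reads 3, 2, 3 and 2. The ech cells have the highest depth of the group, 25160911 and 17406168 reads.

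Within the pyramidal neurons, cells 1, 2 and 5 held 8 genes each, cell 3 held 5 and cell 4 held 6. In all, 35 of 45 pairs of a gene and a pyramidal neuron were above 0 and 32 were at 100 or more. Of the 10 empty pairs, 4 belong to Camk2a. Apart from that gene, cells 1 and 2 had every gene, cell 5 lacked Bhlhe22, cell 4 lacked Mal2 and Neurod6, and cell 3 lacked Slc17a7, Hpca and Neurod6.

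Low or single-cell presence was also seen in GABAergic neurons. The share of all genes was not computed for the counts given here. Slc17a7 apart, 8 of the 9 genes had a read in at least 1 of the 16 GABAergic neurons, and 6 reached 100 or more in at least 1 of them. Of 144 pairs of a gene and a GABAergic neuron, 37 were above 0. These split into 20 pairs at 100 or more, mostly of Ctxn1, Mal2, Sgk1 and Hpca, and 17 pairs below 100, of which 6 rest on 1 to 3 reads. Pairs above 0 made up 15 of 45 in OCM-treated, 8 of 45 in purified and 14 of 54 in glia-cultured neurons, and pairs at 100 or more were 7, 7 and 6.

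OCM-treated cell 2 held 8 of the 9 genes, as many as the fullest pyramidal neurons, and 6 after thinning. Slc17a7 was the gene it lacked. Its values were 1994 for Sgk1, 1343 for Mal2, 524 for Cd24, 404 for Hpca, 32.6 for Bhlhe22, 14.2 for Camk2a, 3.05 for Neurod6 and 1.02 for Ctxn1, each below the pyramidal mean of its gene. It also had 11930 normalized counts of Gad1 and 12967563 reads, the highest depth of its group. The other OCM-treated neurons held 2, 3, 1 and 1 of the genes, in the order of cells 1, 3, 4 and 5.

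Detection of the 9 genes has to be read beside that of all genes. Purified neurons had 2573 to 4065 genes above 0 in all, OCM-treated ones 3992 to 6331 and glia-cultured ones 3760 to 8652. Pyramidal neurons had 2540 to 5325. Both GABAergic neurons with the most of the 9 genes, OCM-treated cell 2 and glia-cultured cell 5, had the most genes of their group, 6331 and 8652. In purified neurons, cells 1 to 5 held 2, 3, 1, 2 and 0 of the 9 genes, and 7 of the 8 values were at 100 or more. Hpca, Bhlhe22 and Neurod6 were at 0 in all 5, as was Slc17a7. In glia-cultured neurons 8 of 14 values were below 100, and glia-cultured cell 5 held 5 genes, of which Ctxn1 alone, at 158, reached 100.

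The culture comparisons among GABAergic neurons share their groups, so their values are given side by side. In OCM-treated minus purified neurons 4 of the 9 genes were measured. Of these 2 were higher by at least 3, Hpca by 4.12 and Sgk1 by 3.03, where 28.8% of 5143 genes were, and 1 was lower by at least 3, Ctxn1 with -4.21, where 4.47% were. Mal2 differed by -2.43, and by -3.56 without purified cell 3, 4 or 5. Hpca was 2.44 with a pseudocount of 10 and 2.22 as a difference of medians. The median of the 4 genes was 0.30 and that of all measured genes 1.40. Sgk1 dropped below 3 without OCM-treated cell 2, at 1.61, or cell 4, at 1.94, and without any purified cell other than cell 2, at 2.46, and was 5.29 without purified cell 2. Taken as the log2 ratio of group means, with 1 added to each mean, it was 0.16. The means were 563 in OCM-treated and 505 in purified neurons. Ctxn1 was -2.81 without purified cell 4 and -5.94 without OCM-treated cell 1. Hpca had a value in 3 OCM-treated neurons and 0 in all purified ones, and without 1 of OCM-treated cells 1 to 3 it no longer met the minimum of 3 cells.

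In OCM-treated minus glia-cultured neurons 6 of the 9 genes were measured. Sgk1 was higher by 5.29, and from 3.87 to 6.61 when any 1 cell was left out. It was the 1 gene past 3, where 5.4% of 6772 genes were higher, and 0 of the 6 were lower by 3, where 18.2% were. Cd24 differed by 1.29, Hpca by 1.56, Ctxn1 by -2.25, Neurod6 by -1.21 and Camk2a by -1.40. Ctxn1 passed 3 without OCM-treated cell 1, at -3.98, or glia-cultured cell 1, 2 or 4, at -3.10, and Hpca did without glia-cultured cell 3, at 3.38. As the log2 ratio of group means, with 1 added to each mean, Hpca was -1.11, Cd24 5.98, Neurod6 -3.32 and Camk2a -3.88. Among cells titled S, with 1 glia-cultured neuron, Hpca was 4.12 and Ctxn1 -7.61. The median of the 6 was 0.04 beside -0.72 over all genes.

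In purified minus glia-cultured neurons, 0 of 4 measured genes passed 3 in either direction, where 2.38% of 6302 genes were higher and 38.4% lower. Mal2 differed by 2.62, Ctxn1 by 1.96, Cd24 by 1.75 and Camk2a by -1.65, with a median of 1.85 for these genes and -2.13 for all. Mal2 passed 3 without purified cell 3, 4 or 5, at 3.75, and Ctxn1 without purified cell 2 or 5, at 3.50, or glia-cultured cell 6, at 3.03. Among cells titled S, with 1 glia-cultured neuron, the direction was the other way, with -5.73 for Mal2 and -1.85 for Ctxn1. Mal2 was also 3.39 with a pseudocount of 0.1, and Ctxn1 5.48 as a difference of medians. As the log2 ratio of group means, with 1 added to each mean, Cd24 was 8.28 and Camk2a -4.76. The list of neuronal calcium sensors had 4 of 5 measured genes lower by at least 3 in the same comparison, and that of CaMKII and its partners 6 of 11. In OCM-treated minus purified neurons, 2 of 3 measured calcium sensors and 4 of 8 measured genes of the CaMKII list were higher by at least 3. Over all 5143 measured genes 28.8% were higher by that much, and the median was 1.40. Among the list genes, Vsnl1 was higher by 5.47 and Camk2b by 5.34.

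Across the 21 cells, likeness was taken as Pearson's r of log2 of the normalized count plus 1, over the 6424 genes whose mean reached 50 and that had reads in 4 or more cells. It describes shared presence in cells that also share their depth and group, and carries no test. The 3 most alike genes are given for each gene other than Ctxn1. Slc17a7 was closest to Chrm4, a muscarinic receptor gene (0.89), then to Spata2L (0.84) and Ccsap (0.83). Hpca was closest to Rgs4, a regulator of G-protein signalling (0.86), then to Ccsap (0.84) and Chrm4 (0.82). Neurod6 was closest to Pold2, a DNA polymerase subunit gene (0.81), then to Chrm4 (0.81) and Zfp18 (0.79), so Chrm4 was among the 3 closest to 3 of the 9 genes. Bhlhe22 was closest to Cabp7, a calcium-binding protein gene (0.87), then to Trappc6a (0.86) and Fars2 (0.84). Sgk1 was closest to Zfp238 (0.69), Mal2 (0.68) and Rasl11b (0.66), and Mal2 to Sgk1 (0.68), Raver1 (0.68) and Scn3b, a sodium channel subunit gene (0.68). Cd24 was closest to Nt5dc2 (0.76), Tapbp (0.68) and Ctss (0.67), and genes like Ctxn1 included the joint row Mphosph8 // Parp4 (0.64) and the neurotrophin receptor gene Ntrk3 (0.62). Camk2a was closest to Plec, a cytoskeletal linker gene (0.82), Lpl, the lipoprotein lipase gene (0.81), and Ank3, the ankyrin-G gene (0.78). The 9 genes were chosen in part by their pyramidal levels, which favours likeness among them in these same cells. Among these genes, Slc17a7 was at 0.78 with Hpca, 0.77 with Neurod6 and 0.70 with Bhlhe22, and Hpca at 0.66 with Neurod6. Low pairs included Sgk1 with Ctxn1 at 0.21, Slc17a7 with Camk2a at 0.09 and Bhlhe22 with Camk2a at -0.17.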

How the data were processed

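Per the labels' protocols, the content of each patched neuron was amplified by SMART-Seq v4, and Nextera XT libraries of it were sequenced from both ends on a NextSeq500. The submitters' processing notes list the build rn6 and the tools DESeq2, SAMtools, Picard, FastQC and STAR 2.4.0. No source used here gives the counter, annotation or strand setting. The deposited signal is the authors' DESeq2-normalized count per gene, for 34976 rows, of which 18376 have no symbol and 16245 symbols remain. In 100% of values above 0, the value was a whole multiple of 1 step per cell, within 0.05, which gave back whole reads. Intervals and floors of 3 reads cover counting error only. No count test was run on these reads, because each group is 1 sample. A fixed log2 pseudocount of 1 understates changes of low genes. A gene was measured when above 0 in at least 3 cells of both groups together. The 9 genes and all lists were chosen with earlier results of these data known. All 9 genes are named, list genes as examples, and the closest genes by r, of which 1 is not reported here. The scripts, tested on simulated data, ran in Python 3.11.15 with pandas 2.3.3, numpy 2.4.6, matplotlib 3.10.9 and scipy 1.17.1. Alternatives were other pseudocounts, scaling, thinning, ratios, medians, filters, title letters and leaving out each cell. The pyramidal means without each cell were chosen after seeing the data.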

Additional observations from a re-analysis of the deposited data

Results flagged for a closer look

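In 15 of 29 sets of values, 1 gene in 1 group each, the highest cell stood apart from the rest of its group by Dixon's criterion, which chance alone meets in about 1 of 20 sets of normally distributed values. Sets that are mostly 0 meet it whenever 1 cell is positive, so these are mainly single-cell values. Among pyramidal neurons they were Cd24 at 8566 in cell 3 and Camk2a at 88.4 in cell 5. Among OCM-treated neurons they were Cd24 at 524, Mal2 at 1343, Bhlhe22 at 32.6 and Camk2a at 14.2, all in cell 2, and Ctxn1 at 473 in cell 1. Among purified neurons they were Sgk1 at 2523 and Camk2a at 5.42 in cell 2 and Cd24 at 2595 in cell 4. Among glia-cultured neurons they were Hpca at 3203 and Camk2a at 320 in cell 3, Bhlhe22 at 6.40 and Neurod6 at 80.0 in cell 5, and Mal2 at 2639 in cell 6.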

How the results depend on the processing

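The 8 genes higher by at least 3 in pyramidal than in glia-cultured GABAergic neurons were 8 when any 1 cell was left out. With cells titled P only they were 5 of 7 measured, where Slc17a7 and Mal2 fell below the minimum of 3 cells. They were 3 of 3 measured when a gene had to be above 0 in at least 6 cells, a filter that by construction drops genes found in few cells. The share of all genes was not computed for these settings. The median of the measured genes in purified minus glia-cultured neurons was 1.85, from 0.47 to 2.91 when any 1 cell was left out, and -3.79 with cells titled S only, where 2 genes were measured. In OCM-treated minus purified neurons it was 0.30, and from -1.92 to 4.12 when any 1 cell was left out, the highest without purified cell 2. In OCM-treated minus glia-cultured neurons it was 0.04, from -1.55 to 0.51 when any 1 cell was left out, and 4.12 with cells titled S only, where 3 genes were measured. The cause of these shifts was not tested. Of the values of single genes under other settings, 452 moved by less than the spread between cells and 14 by more. That spread was wide, with an SD on the log2 scale of 6.99 for Neurod6 in pyramidal neurons. Staying within it is therefore a weak sign of stability. No difference of at least 3 in size turned round, and smaller ones were not checked by this rule. Some of those did change sign, such as Mal2 and Ctxn1 in purified minus glia-cultured neurons with cells titled S only. No paired analysis was possible because the labels give no replicate number that pairs cells. With 1817671 reads in the shallowest cell, a gene at 0 may lie below the limit of 3 reads there, and none of the spreads between cells covers differences between animals or cultures.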
